A study of Homo sapiens and Mus musculus with 16 samples.

Results

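Receptor tyrosine kinases are cell-surface proteins that bind a ligand outside the cell and phosphorylate tyrosines inside it. The 10 genes described here encode receptors outside the EGF receptor family, and were taken by symbol: MET, AXL, FGFR1, PDGFRB, EPHA2, EPHB2, IGF1R, INSR, DDR1 and ROR1. All 10 were found among the 58713 genes of the human table and, in mouse spelling, among the 53796 genes of the mouse table. The 16 libraries of total RNA came from a pair of tumour cell lines: MDA-MB-231, of human triple-negative breast cancer origin, and CT26, grown from a colon carcinoma of the mouse. Each line gave 4 wild type libraries and 4 libraries of cells whose PD-L1 gene (PD-L1 KO in human, Pd-l1 KO in mouse cells) was disrupted by CRISPR carried in lentivirus. The wild type and knockout cells of a line shared their medium, DMEM for MDA-MB-231 and RPMI 1640 for CT26, each with serum, penicillin and streptomycin. The sources used here do not say if knockout cells were pooled or came from 1 clone, whether the wild type cells carried a control guide, or whether the libraries of a group were grown apart. The p-values therefore reflect library-to-library spread alone, and that spread may be technical.

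In many such receptors, though not in all, ligand binding brings the chains together, so that their kinase domains phosphorylate each other. Adaptors such as GRB2, SHC1 and the IRS proteins then dock on the phosphotyrosines. From there the RAS to ERK and PI3K pathways carry the signal to growth, survival and migration. MET binds hepatocyte growth factor, AXL binds GAS6, and the Eph receptors bind ephrins that are themselves held on neighbouring cells. In carcinoma cells MET, AXL and EPHA2 are studied for their links to invasion and to resistance against inhibitors of other receptors.

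Levels are in FPKM, which counts fragments relative to transcript length and library size, and changes are on the log2(FPKM + 1) scale, knockout minus wild type, which understates the change of low genes. A gene rose or fell where limma's p, adjusted over all genes tested in that line, was below 0.05. The depth of a library relative to wild type replicate 1, read from the spacing of low FPKM values, ranged over 0.941 to 1.21 for wild type and 0.509 to 0.779 for knockout libraries of MDA-MB-231. In CT26 it was 0.799 to 1.14 and 0.926 to 2.49. The targeted transcript CD274 spanned 11.2 to 12.8 FPKM across wild type and 8.19 to 12.5 FPKM across knockout libraries of MDA-MB-231 (log2 change -0.20, SE 0.12, limma adjusted p = 0.166), so it did not pass the test. In CT26 Cd274 read 1.23 to 1.504 FPKM in the wild type and 0.445 to 0.569 FPKM in the knockout (log2 change -0.66, SE 0.08, limma adjusted p = 1.42e-04). Since a CRISPR lesion can leave the RNA level as it was, this transcript is a weak check of the labels.

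Markers of cell identity also differed between the groups. In MDA-MB-231 7 of 7 epithelial markers averaged 1 FPKM or more in wild type and 6 in knockout cells, and their sum was 1190.2 to 1216 FPKM in the wild type and 546 to 577 FPKM in the knockout. The sum of 6 mesenchymal markers, mostly VIM, was 1289 to 1360 FPKM and 2599 to 2795 FPKM. Of these markers VIM averaged 1113 and 2545 FPKM and ZEB1 8.22 and 19.6 FPKM. ZEB2 averaged 2.03 and 3.36 FPKM and SPARC 0.839 and 2.69 FPKM. The remaining markers were lower in the knockout, FN1 at 199.2 and 116 FPKM and CDH2 at 0.404 and 0.18 FPKM. ESR1 and PGR, the hormone receptors that triple-negative cells lack, were each below 1 FPKM on average in both groups. ERBB2, listed with them, averaged 24.6 FPKM in wild type and 17.8 FPKM in knockout cells (limma adjusted p = 0.00706). In CT26 the sum of the epithelial markers was 33.2 to 34.9 FPKM in wild type and 30.8 to 35.1 FPKM in knockout cells, almost all of it Krt18 (means 33.7 and 31.6 FPKM), and Cdh1, Epcam and Krt19 were listed at 0 in the wild type. None of the colon markers Cdx1, Cdx2, Vil1 and Lgals4 reached a mean of 1 FPKM there, while all 6 mesenchymal markers did. From wild type to knockout Cdx2 went from 0.0415 ± 0.0164 to 0.930 ± 0.0795 FPKM (SD). Lgals4 went from 0.577 ± 0.261 to 1.21 ± 0.673 FPKM, and Cdx1 and Vil1 averaged 0.0161 and 0.00182 FPKM in the knockout. The sum of fibroblast and mural cell markers, almost all of it Col3a1, was 14.6 to 16.9 FPKM in the wild type and 67.3 to 85.2 FPKM in the knockout of CT26. The 9 leukocyte markers summed to 109 to 115 FPKM in wild type and 78.8 to 95.6 FPKM in knockout MDA-MB-231, where CD68 averaged 105.4 and 85.9 FPKM and CSF1R 4.32 and 0.407 FPKM. In CT26 they summed to 20.6 to 24.95 FPKM and 53.9 to 59.2 FPKM. There Cd14 averaged 17.1 and 53.6 FPKM and Cd68 5.30 and 3.55 FPKM. The other leukocyte markers averaged below 1 FPKM in both groups of CT26, so the higher sum came from Cd14. The T cell marker CD3E was listed at 0 in every group of both lines. The part of these differences in the receptor results was not tested, and in bulk RNA fewer cells of a type and less RNA per cell cannot be told apart.

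In the MDA-MB-231 knockout 3 of the 10 receptor genes rose and 6 fell, and the 2 groups of libraries did not overlap for 8 of them. IGF1R rose most, to 4.28 times its wild type mean, and AXL and EPHA2 rose to 1.42 and 1.35 times. ROR1, DDR1, EPHB2 and INSR were left with 21.8%, 26.9%, 30.2% and 41.7% of their wild type means, MET fell to 80.9% and FGFR1 to 82.9%, and PDGFRB did not pass the test. All 10 genes were tested. Among the 14450 genes tested in this line 68.2% were called, 42.6% as higher and 25.7% as lower, so 9 calls among 10 receptors stand against a background in which most genes were called. The groups were apart for 62.7% of all genes, 39.1% with the knockout higher and 23.6% with it lower, beside 3 and 5 of the receptors. The median log2 change of the 10 was -0.28 beside 0.18 over all genes, and the median absolute change 0.69 beside 0.53. Upper-quartile scaling moved the median over all genes from 0.18 to -0.01 and the calls from 6149 higher and 3711 lower to 4736 and 4851, and the receptor counts were again 3 and 6.

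**Figure D1:**
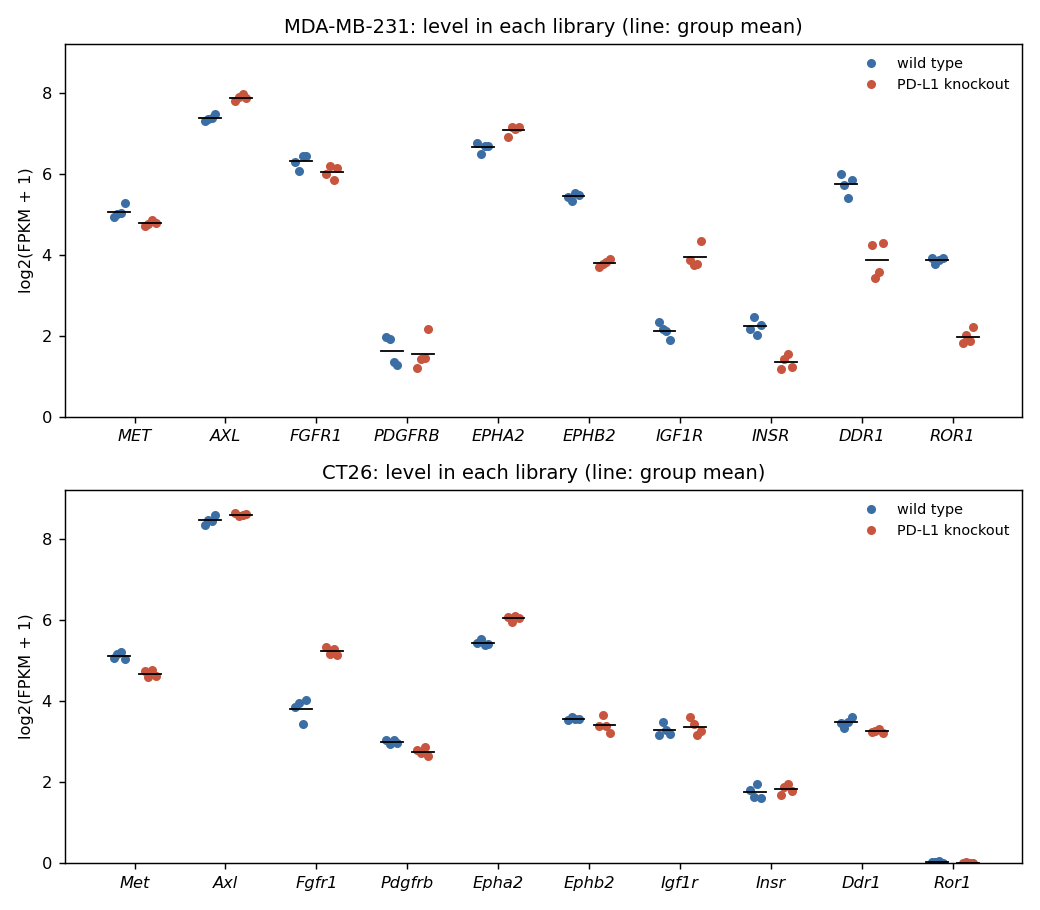
Level of the 10 receptor genes in each library, as log2(FPKM + 1) on the vertical axis, for MDA-MB-231 (top) and CT26 (bottom); points are libraries, blue for wild type and red for PD-L1 knockout, and black lines are means of 4. In MDA-MB-231 the groups are apart for 8 of the genes, with FGFR1 and PDGFRB overlapping, and in CT26 they are apart for 5 of the 9 tested, with Ror1 near 0 in every library.

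The IGF1 receptor and the insulin receptor are close relatives that can pair into hybrid receptors, and their transcripts moved in opposite directions in MDA-MB-231. IGF1R (ENSG00000140443, hg38 chromosome 15, 98648539 to 99135593 in the deposited table) read 4.06, 3.47, 3.30 and 2.73 FPKM in wild type replicates 1 to 4 and 13.7, 12.5, 12.7 and 19.1 FPKM in the knockout. In GENCODE 29 IGF1R spans 98648539 to 98964530. Every knockout library lay above every wild type library, and knockout replicate 4 was the highest of all. The log2 change was 1.81 with SE 0.15 and limma adjusted p = 7.27e-06. INSR (ENSG00000171105, hg38 chromosome 19, 7112255 to 7294034) read 3.50, 4.50, 3.06 and 3.79 FPKM in the wild type and 1.26, 1.66, 1.95 and 1.32 FPKM in the knockout. The groups were again apart, with a log2 change of -0.89, SE 0.13 and limma adjusted p = 2.97e-04. Since INSR is low, its log2 change moved to -0.41 at a pseudocount of 5, where it was still called. The IGF1R to INSR ratio within a library was 0.932 ± 0.220 in the wild type and 9.84 ± 3.57 in the knockout (SD, n = 4 per group), a pair of values chosen after the levels were seen and given without a test.

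Adaptors that act next to these 2 receptors moved as well. IRS2, a docking protein for insulin and IGF receptors, rose from 2.85 ± 0.350 to 8.50 ± 0.178 FPKM (SD, n = 4 per group; log2 change 1.31, SE 0.09, limma adjusted p = 2.15e-06). GRB10, an adaptor known to restrain insulin and IGF1 receptor signalling, fell from 22.1 ± 2.56 to 9.58 ± 0.648 FPKM (limma adjusted p = 8.81e-06). GRB14, a related adaptor that also restrains the insulin receptor, rose from 0.133 ± 0.154 to 3.18 ± 0.357 FPKM (limma adjusted p = 1.83e-06). IRS1 went from 17.6 ± 1.19 to 21.3 ± 0.900 FPKM, called at limma adjusted p = 0.00691 but not after upper-quartile scaling, where the log2 change was 0.06 and the adjusted p = 0.504, nor after quantile normalization (adjusted p = 0.182). FURIN, the protease that cleaves the precursors of MET, IGF1R and INSR into their mature chains, fell from 87.03 ± 11.002 to 20.5 ± 5.18 FPKM (log2 change -2.05, SE 0.17, limma adjusted p = 6.94e-06).

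ROR1 and DDR1 had the largest falls among the 10. ROR1, a receptor for WNT5A that is mostly known from embryos and tumours (ENSG00000185483, hg38 chromosome 1, 63774022 to 64181498), read 14.1, 12.6, 13.5 and 14.1 FPKM in the wild type and 2.503, 3.05, 2.68 and 3.61 FPKM in the knockout. The 2 groups were far apart, and the log2 change was -1.89 with SE 0.10 and limma adjusted p = 5.29e-07. At a pseudocount of 5 it was -1.23. WNT5A itself rose from 0.0907 ± 0.0522 to 2.28 ± 0.451 FPKM (limma adjusted p = 4.07e-06), while ROR2, the other ROR receptor, was below 0.1 FPKM on average in both groups. DDR1, a receptor that binds collagen rather than a soluble factor (ENSG00000204580, hg38 chromosome 6, 30876421 to 30900156), read 62.4, 51.2, 41.4 and 56.7 FPKM in the wild type and 18.0, 9.71, 10.9 and 18.4 FPKM in the knockout. Knockout replicates 2 and 3 were below replicates 1 and 4, and all 4 were below the wild type. The log2 change was -1.86 with SE 0.22 and limma adjusted p = 7.13e-05. The other collagen receptor of this family, DDR2, was below 1 FPKM on average in both groups. Among the collagens that bind such receptors, COL1A1 fell from 9.81 ± 1.33 to 3.29 ± 0.646 FPKM and COL4A1 rose from 8.54 ± 0.364 to 19.5 ± 2.54 FPKM (limma adjusted p = 2.65e-05 and 7.96e-06).

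The Eph receptors EPHA2 and EPHB2 went opposite ways in MDA-MB-231. EPHB2 (ENSG00000133216, hg38 chromosome 1, 22710839 to 22921500) read 42.02, 39.2, 45.2 and 43.8 FPKM in the wild type and 11.97, 12.5, 13.0 and 13.8 FPKM in the knockout. The spread within each group was small beside the gap, and the log2 change was -1.65 with SE 0.07 and limma adjusted p = 1.02e-07. EPHA2 (ENSG00000142627, hg38 chromosome 1, 16124337 to 16157329 as deposited) read 108, 88.4, 102 and 102 FPKM in the wild type and 119.7, 141, 137 and 141 FPKM in the knockout. In GENCODE 29 EPHA2 spans 16124337 to 16156087. The groups were apart, with knockout replicate 1 the closest to the wild type, and the log2 change was 0.43 with SE 0.08 and limma adjusted p = 9.49e-04. Relative to the median gene the change of EPHA2 was 0.25, after upper-quartile scaling it was 0.21 (limma adjusted p = 0.0361), and after quantile normalization it was 0.18 and no longer called (limma adjusted p = 0.0737). The EPHA2 to EPHB2 ratio within a library was 2.35 ± 0.143 in the wild type and 10.5 ± 0.564 in the knockout (SD, n = 4 per group), chosen after the levels were seen and not tested.

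EPHB4, EPHB6 and the ligand EFNB2 fell along with EPHB2 in this line. EFNB2, an ephrin bound by EPHB receptors, fell from 23.1 ± 0.619 to 4.64 ± 0.245 FPKM (log2 change -2.10, SE 0.06, limma adjusted p = 2.11e-08). EPHB4, the receptor with which EFNB2 is best known to pair, fell from 20.2 ± 1.63 to 7.15 ± 1.49 FPKM (limma adjusted p = 2.14e-05). Other relatives were lower in level. EPHA4 fell from 4.63 ± 0.838 to 1.88 ± 0.830 FPKM (limma adjusted p = 0.00263), and the ephrin EFNB1 read 1.51 ± 0.196 and 1.83 ± 0.116 FPKM and did not pass (0.121). EPHA6 rose from 0.0226 ± 0.0307 to 1.41 ± 0.247 FPKM (limma adjusted p = 7.99e-06) and the ephrin EFNA3 from 1.23 ± 0.425 to 2.32 ± 0.311 FPKM (0.00895), while EFNA4 fell from 5.56 ± 0.440 to 3.41 ± 0.472 FPKM (9.66e-04). EPHB6, an Eph receptor without kinase activity, averaged 21.8 ± 0.881 FPKM in the wild type and was listed at 0 in all 4 knockout libraries (limma adjusted p = 7.91e-10).

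AXL was the most abundant of the 10 in each group of MDA-MB-231. AXL (ENSG00000167601, hg38 chromosome 19, 41219203 to 41261766) read 157, 161, 165 and 177 FPKM in the wild type and 219.6, 235, 249 and 232 FPKM in the knockout. The lowest knockout library lay above the highest wild type library, and the log2 change was 0.50 with SE 0.05 and limma adjusted p = 3.59e-05. Relative to the median gene it was 0.32, after upper-quartile scaling 0.28 and after quantile normalization 0.24, called in each case. An antisense RNA, AC011510.1, shares exon positions with AXL and read 3.55 and 2.17 FPKM, so reads of that overlap cannot be assigned without strand. MERTK, another receptor of the same family, rose from 2.86 ± 0.657 to 9.26 ± 0.673 FPKM (limma adjusted p = 1.21e-05), and the third, TYRO3, read 13.6 ± 1.68 and 13.7 ± 3.60 FPKM. Their ligands went apart. GAS6 fell from 150.3 ± 3.84 to 105 ± 1.85 FPKM (log2 change -0.51, SE 0.04, limma adjusted p = 2.93e-06), and PROS1, which binds TYRO3 and MERTK, rose from 1.98 ± 0.249 to 9.06 ± 2.09 FPKM (log2 change 1.74, SE 0.15, limma adjusted p = 7.68e-06).

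MET (ENSG00000105976, hg38 chromosome 7, 116672390 to 116798386) read 29.5, 31.3, 31.6 and 37.7 FPKM in the wild type and 24.98, 25.9, 28.1 and 26.3 FPKM in the knockout of MDA-MB-231. The highest knockout library was just below the lowest wild type library, and the log2 change was -0.29 with SE 0.08 and limma adjusted p = 0.0109. It was -0.50 after upper-quartile scaling. HGF, the ligand of MET, was listed at 0 in all 8 libraries. MST1R, the only close relative of MET, fell from 28.04 ± 2.65 to 1.78 ± 1.42 FPKM (log2 change -3.54, SE 0.35, limma adjusted p = 2.19e-05), and PLXNB2, a plexin that can associate with MET, fell from 105 ± 13.9 to 49.2 ± 6.71 FPKM (limma adjusted p = 5.03e-05).

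FGFR1 and PDGFRB gave the least certain values in MDA-MB-231. FGFR1, a receptor for fibroblast growth factors (ENSG00000077782), read 76.7, 66.1, 85.02 and 85.7 FPKM in the wild type and 62.8, 71.99, 56.1 and 69.1 FPKM in the knockout. The groups overlapped, since wild type replicate 2 lay below knockout replicates 2 and 4, and the log2 change was -0.27 with SE 0.10 and limma adjusted p = 0.0479. The call was lost without wild type replicate 1, 3 or 4 or knockout replicate 1, 3 or 4, at adjusted p from 0.0527 to 0.119, and also with no filter (0.0953), with no mean-variance trend (0.0629) and with the replicate number as a block (0.0918), while after upper-quartile scaling the log2 change was -0.48 (adjusted p = 0.00257). Exons of FGFR1 overlap those of LETM2 on the opposite strand in GENCODE 29. LETM2 read 16.5 ± 1.54 and 40.03 ± 1.36 FPKM, and since the use of strand is not given, reads of the overlap cannot be assigned. PDGFRB, a receptor for platelet-derived growth factors best known from fibroblasts and mural cells (ENSG00000113721, hg38 chromosome 5, 150113837 to 150155872), read 2.92, 2.75, 1.55 and 1.44 FPKM in the wild type and 1.28, 1.70, 1.73 and 3.48 FPKM in the knockout. The groups overlapped through most of their range (log2 change -0.07, SE 0.24, limma adjusted p = 0.812), and the sign turned when wild type replicate 1 or 2 or knockout replicate 1 was left out.

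The listed fibroblast growth factors that could be tested, FGF5 and FGF1, rose in the MDA-MB-231 knockout. FGF5 rose from 2.57 ± 0.990 to 29.3 ± 3.49 FPKM (log2 change 3.12, SE 0.19, limma adjusted p = 9.97e-07) and FGF1 from 1.11 ± 0.382 to 8.0001 ± 1.98 FPKM (limma adjusted p = 1.30e-05). FGF2, FGF7, FGF9 and FGF18 were too low to be tested. FGFR4, another receptor of the family, rose from 1.52 ± 0.726 to 4.12 ± 1.86 FPKM (limma adjusted p = 0.0151).

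The sequences before RefSeq transcription starts are shown for 5 human members, to set IGF1R, which rose, beside genes that fell. Windows from RefSeq (GRCh38.p14) were matched by symbol for 9 of the 10 genes, all but FGFR1. The 250 bases before a start are printed for IGF1R (chr15:98648289-98648538, plus strand), INSR (chr19:7294415-7294664, minus strand), ROR1 (chr1:63773767-63774016, plus strand), EPHB2 (chr1:22710589-22710838, plus strand) and MET (chr7:116671946-116672195, plus strand), the members that rose or fell in MDA-MB-231 and for which every window in the table lies outside the GENCODE 29 exons of the gene. The RefSeq start is the GENCODE 29 gene start for IGF1R and EPHB2, and lies 5 bases before it for ROR1, 194 for MET and 380 for INSR, and for these last 3 the bases after the start were not found in a GENCODE 29 transcript of the gene. Each sequence is 5′ to 3′ on the strand of the gene, and capitals mark motif matches on either strand.
IGF1R: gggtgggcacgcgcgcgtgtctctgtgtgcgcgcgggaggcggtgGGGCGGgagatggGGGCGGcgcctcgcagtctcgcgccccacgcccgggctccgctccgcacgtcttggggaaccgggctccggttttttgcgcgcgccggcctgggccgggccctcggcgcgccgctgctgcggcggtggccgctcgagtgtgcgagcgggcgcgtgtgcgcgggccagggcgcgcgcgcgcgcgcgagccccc
INSR: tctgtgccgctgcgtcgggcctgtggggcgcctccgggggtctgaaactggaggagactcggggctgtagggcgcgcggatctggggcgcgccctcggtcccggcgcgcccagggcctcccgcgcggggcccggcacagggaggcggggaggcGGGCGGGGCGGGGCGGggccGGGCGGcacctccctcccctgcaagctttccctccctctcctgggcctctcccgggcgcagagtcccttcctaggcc
ROR1: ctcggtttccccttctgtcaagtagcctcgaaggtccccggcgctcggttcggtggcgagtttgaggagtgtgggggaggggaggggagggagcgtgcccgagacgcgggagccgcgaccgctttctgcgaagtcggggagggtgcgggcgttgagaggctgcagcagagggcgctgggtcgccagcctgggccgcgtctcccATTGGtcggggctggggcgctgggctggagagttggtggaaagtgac
EPHB2: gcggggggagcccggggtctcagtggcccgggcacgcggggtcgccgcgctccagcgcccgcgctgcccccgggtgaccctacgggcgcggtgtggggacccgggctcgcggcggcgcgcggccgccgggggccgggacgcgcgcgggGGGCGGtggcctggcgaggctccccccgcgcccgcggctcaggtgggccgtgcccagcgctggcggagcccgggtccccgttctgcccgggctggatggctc
MET: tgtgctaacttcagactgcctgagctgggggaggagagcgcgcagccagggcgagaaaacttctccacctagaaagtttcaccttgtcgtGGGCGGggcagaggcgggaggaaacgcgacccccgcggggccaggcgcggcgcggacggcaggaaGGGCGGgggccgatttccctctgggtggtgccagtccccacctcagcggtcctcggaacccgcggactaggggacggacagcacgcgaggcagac

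Searches ran over both strands of each window. The GC box, known to be bound by SP1, is GGGCGG in letters. The CCAAT box is searched as its name spells it. The AP-1 site was searched as TGANTCA, where N is any base. The E-box was searched as CACGTG and the TATA box as TATAAA. The GC box occurred 2 times in the window of IGF1R, 4 times in that of INSR, where 3 of the matches overlap, 1 time in that of EPHB2, 2 times in that of MET and not in that of ROR1. The CCAAT box was found 1 time, in ROR1, on the strand opposite to the one printed. The other motifs were in none of the 5 windows. Over all 35116 windows of 250 bases in the RefSeq table, 42.6% held a GC box, 32.01% a CCAAT box, 6.57% an AP-1 site, 6.34% an E-box and 10.7% a TATA box. The windows of IGF1R and INSR, which moved in opposite directions, were 81.2% and 78.4% G or C, that of EPHB2 84.8%, ROR1 69.2% and MET 68.4%, where the median over all windows was 58.0%. These matches describe the letters only.

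In the CT26 knockout 3 of the 9 tested receptor genes rose and 3 fell. Fgfr1 rose to 2.77 times its wild type mean, Epha2 to 1.54 times and Axl to 1.10 times. Met fell to 72.7% of its wild type mean, Pdgfrb to 82.3% and Ddr1 to 84.02%. Ephb2, Igf1r and Insr did not pass the test, and Ror1 was too low to be tested. In this line 55.8% of 11341 genes were called, 22.3% as higher and 33.4% as lower, so the 6 calls among 9 receptors stand beside a like share over all genes. The groups of libraries were apart for 5 of the 9, 2 of them with the knockout higher and 3 with it lower, and for 51.5% of all genes, 20.3% higher and 31.1% lower. The median log2 change of the 9 was 0.07 beside -0.06 over all genes, and the median absolute change 0.22 beside 0.24. Upper-quartile scaling moved the calls over all genes from 2534 higher and 3793 lower to 3313 and 2841, and left Axl, Fgfr1 and Epha2 as higher and Met as lower, with Pdgfrb at limma adjusted p = 0.0648 and Ddr1 at 0.0771.

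Fgfr1 (ENSMUSG00000031565) read 13.4, 14.3, 9.74 and 15.2 FPKM in the wild type and 39.5, 34.9, 37.96 and 33.8 FPKM in the knockout of CT26. Wild type replicate 3 was the lowest, and every knockout library was above every wild type library. The log2 change was 1.42 with SE 0.12 and limma adjusted p = 2.88e-05, higher than 99.0% of the changes in this line. Of the ligands named for MDA-MB-231, Fgf5 was listed at 0 in every CT26 library and Fgf1 averaged below 1 FPKM in both groups. Fgf7, the FGF of the list that was tested in this line and a ligand best known for FGFR2, fell from 56.5 ± 2.94 to 42.4 ± 1.20 FPKM (log2 change -0.40, SE 0.04, limma adjusted p = 9.33e-05). The docking protein gene Frs2, which links FGF receptors to RAS, fell from 8.65 ± 0.332 to 7.20 ± 0.159 FPKM (limma adjusted p = 0.00255).

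Epha2 (ENSMUSG00000006445, mm10 chromosome 4, 141301240 to 141329384) read 42.03, 44.9, 40.7 and 41.1 FPKM in the wild type and 66.7, 61.1, 67.6 and 64.98 FPKM in the knockout. The groups were apart by more than their spread (log2 change 0.61, SE 0.05, limma adjusted p = 1.11e-05). Ephb2 (ENSMUSG00000028664, mm10 chromosome 4, 136647539 to 136835988) read 10.5, 11.1, 10.6 and 10.7 FPKM in the wild type and 9.33, 11.6, 9.41 and 8.23 FPKM in the knockout. Knockout replicate 2 lay above the whole wild type group while the others lay below it (log2 change -0.15, SE 0.09, limma adjusted p = 0.197), and without it the log2 change was -0.23 and passed, at adjusted p = 0.0145. Ephb4 fell from 16.7 ± 0.490 to 14.3 ± 0.238 FPKM and Efnb2 rose from 11.2 ± 1.31 to 17.3 ± 0.370 FPKM (limma adjusted p = 0.00184 and 2.59e-04).

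Met (ENSMUSG00000009376, mm10 chromosome 6, 17463800 to 17573980) read 32.5, 34.7, 36.1 and 31.8 FPKM in the wild type and 25.5, 23.03, 26.1 and 23.7 FPKM in the knockout of CT26. No knockout library reached the wild type range, and the log2 change was -0.44 with SE 0.06 and limma adjusted p = 2.32e-04. Hgf averaged below 0.1 FPKM in both groups and so did Mst1r, and Plxnb2 read 116 ± 4.75 and 118 ± 3.68 FPKM (limma adjusted p = 0.634).

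Axl (ENSMUSG00000002602, mm10 chromosome 7, 25757273 to 25788705) read 323, 355, 345 and 383 FPKM in the wild type and 395, 375, 386 and 389 FPKM in the knockout. Wild type replicate 4 fell inside the knockout range, so the groups overlapped (log2 change 0.14, SE 0.05, limma adjusted p = 0.0391). The call was lost when any library other than wild type replicate 4 was left out, at adjusted p from 0.0507 to 0.0924, with no filter (0.0836), with no mean-variance trend (0.0607) and with the replicate number as a block (0.0597), and after upper-quartile scaling the log2 change was 0.23 (adjusted p = 0.00167). Mertk rose from 1.13 ± 0.106 to 2.46 ± 0.302 FPKM and Tyro3 fell from 14.05 ± 0.638 to 9.05 ± 1.44 FPKM (limma adjusted p = 1.81e-04 and 9.42e-04). Gas6 was listed at 0 in all 8 libraries.

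Pdgfrb (ENSMUSG00000024620) read 7.20, 6.68, 7.19 and 6.75 FPKM in the wild type and 5.94, 5.53, 6.24 and 5.19 FPKM in the knockout of CT26. The groups did not overlap, and the log2 change was -0.24 with SE 0.06 and limma adjusted p = 0.0106. Ddr1 (ENSMUSG00000003534, mm10 chromosome 17, 35681567 to 35708244) read 10.01, 9.13, 10.2 and 11.2 FPKM in the wild type and 8.38, 8.50, 8.88 and 8.29 FPKM in the knockout. The highest knockout library was just below the lowest wild type library (log2 change -0.22, SE 0.06, limma adjusted p = 0.0142). Ddr2, which was far more abundant than Ddr1 in this line, fell from 48.8 ± 2.36 to 29.1 ± 0.353 FPKM (log2 change -0.72, SE 0.04, limma adjusted p = 2.56e-06). Among its collagen ligands Col1a1 fell from 21.1 ± 1.19 to 12.6 ± 1.25 FPKM and Col3a1 rose from 14.5 ± 0.883 to 72.9 ± 8.26 FPKM (limma adjusted p = 7.39e-05 and 3.86e-07). Col1a2, the other chain of type I collagen, rose from 244 ± 1.46 to 296 ± 8.62 FPKM (limma adjusted p = 4.66e-05).

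The insulin and IGF1 receptors showed no call in CT26. Igf1r (ENSMUSG00000005533, mm10 chromosome 7, 67952827 to 68233668) read 7.96, 10.2, 8.78 and 8.10 FPKM in the wild type and 11.1, 9.70, 7.91 and 8.52 FPKM in the knockout, with full overlap (log2 change 0.08, SE 0.11, limma adjusted p = 0.591). Insr (ENSMUSG00000005534, mm10 chromosome 8, 3122061 to 3279617) read 2.498, 2.07, 2.85 and 2.04 FPKM in the wild type and 2.19, 2.66, 2.83 and 2.45 FPKM in the knockout, again with overlap (log2 change 0.07, SE 0.10, limma adjusted p = 0.563). The Igf1r to Insr ratio within a library was 3.79 ± 0.855 and 3.75 ± 0.961 (SD, n = 4 per group). Irs1 fell from 10.1 ± 0.530 to 3.52 ± 0.249 FPKM (log2 change -1.30, SE 0.06, limma adjusted p = 1.19e-06), and Irs2 read 8.68 ± 0.198 and 9.27 ± 0.624 FPKM. Ror1 (ENSMUSG00000035305, mm10 chromosome 4, 100095791 to 100444765) was listed at 0 in 1 wild type and 3 knockout libraries and at no more than 0.0251 FPKM in the others, and Wnt5a and Ror2 were listed at 0 in all 8.

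Levels per kilobase can be ordered within a line. In wild type MDA-MB-231 the order was AXL, EPHA2, FGFR1, DDR1, EPHB2, MET, ROR1, INSR, IGF1R and PDGFRB, with means from 165 to 2.16 FPKM. The ranges of DDR1 and EPHB2 overlapped, as did those of INSR and IGF1R and of IGF1R and PDGFRB, while the other neighbours were apart. In the knockout the order was AXL, EPHA2, FGFR1, MET, IGF1R, DDR1, EPHB2, ROR1, PDGFRB and INSR, so IGF1R stood at rank 5 where it had stood at rank 9. There the ranges of IGF1R and DDR1, of DDR1 and EPHB2, and of ROR1, PDGFRB and INSR in turn overlapped. In wild type CT26 the order was Axl, Epha2, Met, Fgfr1, Ephb2, Ddr1, Igf1r, Pdgfrb, Insr and Ror1, and the ranges of Fgfr1, Ephb2, Ddr1 and Igf1r overlapped in turn. In the CT26 knockout Fgfr1 stood above Met, with their ranges apart, and Ephb2, Igf1r and Ddr1 overlapped in turn.

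Over all 58 receptor tyrosine kinase genes the summed FPKM, without rescaling, hardly moved in MDA-MB-231 while its make-up did. The sum was 688 to 762 FPKM in the wild type and 674 to 747 FPKM in the knockout, and the 10 receptors held 68.3 ± 0.928% and 70.4 ± 1.24% of it (SD, n = 4 per group). AXL went from 22.8 ± 0.840% to 32.4 ± 0.839% of the sum and EPHA2 from 13.8 ± 0.873% to 18.7 ± 0.788%. DDR1 went from 7.31 ± 1.14% to 1.99 ± 0.686% and EPHB2 from 5.88 ± 0.295% to 1.78 ± 0.0633%. EGFR rose from 28.2 ± 1.82 to 44.5 ± 3.66 FPKM in this line (limma adjusted p = 5.87e-05), or from 3.90 ± 0.241% to 6.17 ± 0.420% of the sum. In CT26 the sum was 633 to 694 FPKM and 673 to 710.3 FPKM, and Axl alone held 52.8 ± 1.71% and 55.7 ± 0.651% of it, while Egfr was listed at 0 in every wild type library. Fgfr1 went from 1.98 ± 0.334% to 5.26 ± 0.285% of the CT26 sum. These shares are descriptions without a test, and the lines were normalized apart, so their sums are not compared. Upper-quartile scaling moved the median log2 change over all genes of MDA-MB-231 from 0.18 to -0.01. The sums were not computed under that scaling, so how far they hold there was not tested.

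**Figure D2:**
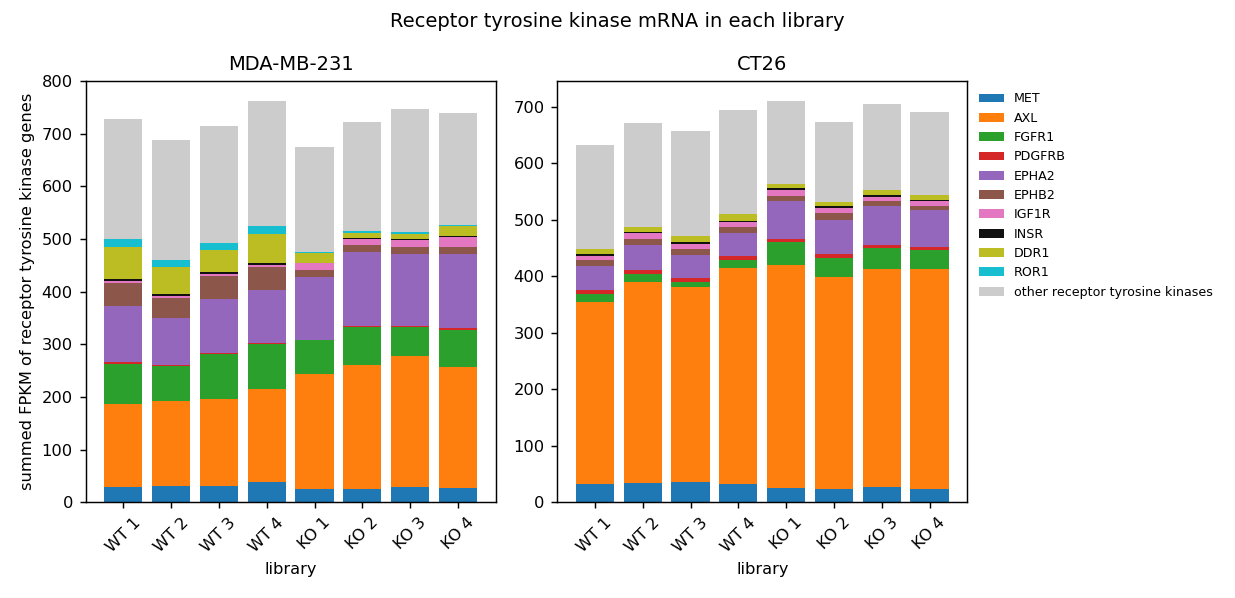
Summed FPKM of 58 receptor tyrosine kinase genes in each library (vertical axis, from 0), stacked by gene, for wild type (WT) and knockout (KO) replicates 1 to 4 of MDA-MB-231 (left) and CT26 (right); grey is the 48 genes other than the 10. The AXL segment grows in the MDA-MB-231 knockout while the DDR1, EPHB2 and ROR1 segments shrink, within sums of 674 to 762 FPKM, and in CT26 Axl fills most of each bar.

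Across lines, EPHA2 and AXL were called higher and MET and DDR1 lower in the knockout of both, although the call of Axl in CT26 was not stable as given above. EPHA2 in MDA-MB-231 was also not called after quantile normalization (limma adjusted p = 0.0737). Nor was Ddr1 in CT26 after upper-quartile scaling (limma adjusted p = 0.0771). Over the 8666 genes tested in both lines and paired by symbol, 11.5% were called higher in both, 9.05% lower in both and 23.4% in opposite directions. FGFR1 was the receptor called in opposite directions, lower in MDA-MB-231 and higher in CT26, although its call in MDA-MB-231 was lost under the alternatives named above. The difference between the responses, MDA-MB-231 minus CT26, passed the test for 6 of the 9 paired receptors, where 72.2% of all paired genes did. It was -1.68 for FGFR1 (SE 0.16, limma adjusted p = 8.80e-08), -1.51 for EPHB2 (SE 0.12, limma adjusted p = 4.58e-09) and 1.73 for IGF1R (SE 0.19, limma adjusted p = 3.33e-07). For DDR1 it was -1.63 (SE 0.23, limma adjusted p = 8.00e-06), so this receptor fell in both lines and more so in MDA-MB-231, and for INSR -0.96 (SE 0.16, limma adjusted p = 5.15e-05). AXL differed by 0.36 (limma adjusted p = 2.96e-04), but the median of all paired genes differed by 0.30, and after upper-quartile scaling AXL differed by 0.05 (adjusted p = 0.477). The difference did not pass for MET (0.15, SE 0.10, limma adjusted p = 0.188), EPHA2 (-0.19, SE 0.09, 0.0747) or PDGFRB (0.17, SE 0.26, 0.556). For EPHA2 it was -0.49 after upper-quartile scaling and passed, at adjusted p = 1.45e-04. It also passed without wild type replicate 2 of MDA-MB-231 (-0.24, adjusted p = 0.0144) or of CT26 (-0.22, 0.0497). The difference for MET passed without wild type replicate 4 of MDA-MB-231 (0.22, adjusted p = 0.031).

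**Figure D3:**
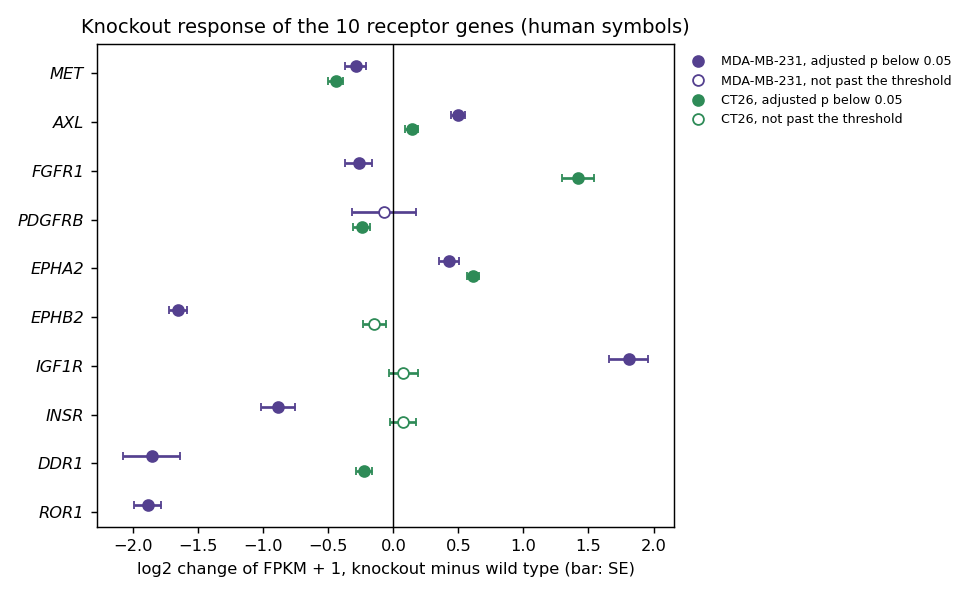
Change of each receptor gene in the knockout, as log2 of FPKM + 1 on the horizontal axis with the SE as bars, in MDA-MB-231 (purple) and CT26 (green); filled points passed an adjusted p of 0.05 and open points did not. EPHA2 and MET lie on the same side of 0 in both lines, FGFR1 lies at -0.27 in MDA-MB-231 and 1.42 in CT26, and IGF1R, INSR, EPHB2 and DDR1 lie at -1.86 to 1.81 in MDA-MB-231 and at -0.22 to 0.08 in CT26.

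The genes around the receptors were read from lists of the other 48 receptor tyrosine kinases, 27 ligands, 13 co-receptors and surface partners, 22 adaptors and proximal effectors, 24 genes of processing, turnover and inhibition, and 16 readouts of receptor signals. In MDA-MB-231, 8 of 19 tested other receptors rose and 8 fell (median log2 change -0.01), and 9 of 17 ligands rose and 5 fell (median 0.59), where 42.6% of all genes rose and 25.7% fell. Among 12 tested co-receptors and partners 11 fell and 1 rose (median -0.96). The hyaluronan receptor CD44, of which a variant form works with MET, fell from 1093 ± 48.3 to 321 ± 12.1 FPKM, the glypican GPC1 from 32.9 ± 2.85 to 9.45 ± 0.958 FPKM and the syndecan SDC4 from 116 ± 1.72 to 55.6 ± 2.74 FPKM, while SDC2 rose from 16.6 ± 0.814 to 31.5 ± 2.05 FPKM. Of 22 adaptors 12 rose and 0 fell (median 0.29), but after upper-quartile scaling 7 rose and 3 fell. The phosphatase gene PTPN11, which carries signals from many receptors to RAS, rose from 29.4 ± 1.19 to 84.6 ± 9.38 FPKM (limma adjusted p = 5.42e-07). Of 23 genes of processing, turnover and inhibition 9 rose and 11 fell (median -0.17). ERRFI1, an inhibitor of EGF receptor family kinases, fell from 97.9 ± 2.21 to 35.3 ± 2.53 FPKM, and SOCS1 from 8.20 ± 0.881 to 0.151 ± 0.0851 FPKM. SOCS2, a feedback inhibitor of growth hormone signals, rose from 1.82 ± 0.306 to 12.5 ± 1.74 FPKM. Of 16 readouts 9 rose and 4 fell (median 0.34), and after upper-quartile scaling 8 rose and 7 fell. ETV4 rose from 15.6 ± 1.35 to 58.2 ± 1.27 FPKM and DUSP5 from 10.2 ± 0.642 to 42.8 ± 3.47 FPKM, and IER3 fell from 510.3 ± 15.5 to 178 ± 3.61 FPKM.

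In CT26, 2 of 11 tested other receptors rose and 7 fell (median log2 change -0.21), and 3 of 11 ligands rose and 4 fell (median 0.07), where 22.3% of all genes rose and 33.4% fell. Among 10 co-receptors and partners 5 rose and 2 fell (median 0.14), with Nrp1, a co-receptor of VEGF and semaphorins, at 1.46 ± 0.0673 and 15.1 ± 0.392 FPKM. Its relative Nrp2 went the other way, from 38.6 ± 0.426 to 19.2 ± 0.826 FPKM. Gpc1 fell here too, from 123 ± 3.14 to 59.1 ± 1.34 FPKM. Of 21 adaptors 1 rose and 12 fell (median -0.23), and after upper-quartile scaling 3 rose and 9 fell. Crkl, an adaptor of the CRK family, fell from 16.7 ± 0.234 to 10.1 ± 0.258 FPKM and the PI3K subunit gene Pik3r1 from 5.13 ± 0.0899 to 3.05 ± 0.229 FPKM. Of 18 genes of processing, turnover and inhibition 4 rose and 9 fell (median -0.19), with 5 and 6 after upper-quartile scaling, and Errfi1 rose from 20.2 ± 0.540 to 42.3 ± 3.40 FPKM. Of 15 readouts 13 rose and 1 fell (median 0.75). Dusp6, an ERK phosphatase, rose from 29.7 ± 2.93 to 105.8 ± 2.91 FPKM and the feedback inhibitor Spry4 from 10.7 ± 0.442 to 23.2 ± 0.961 FPKM. Egr1 rose from 8.44 ± 0.337 to 205 ± 22.7 FPKM, while EGR1 in MDA-MB-231 fell from 7.41 ± 1.45 to 3.05 ± 0.314 FPKM. The lists were drawn up with earlier results of these data known, so their counts are descriptions beside the background.

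**Figure D4:**
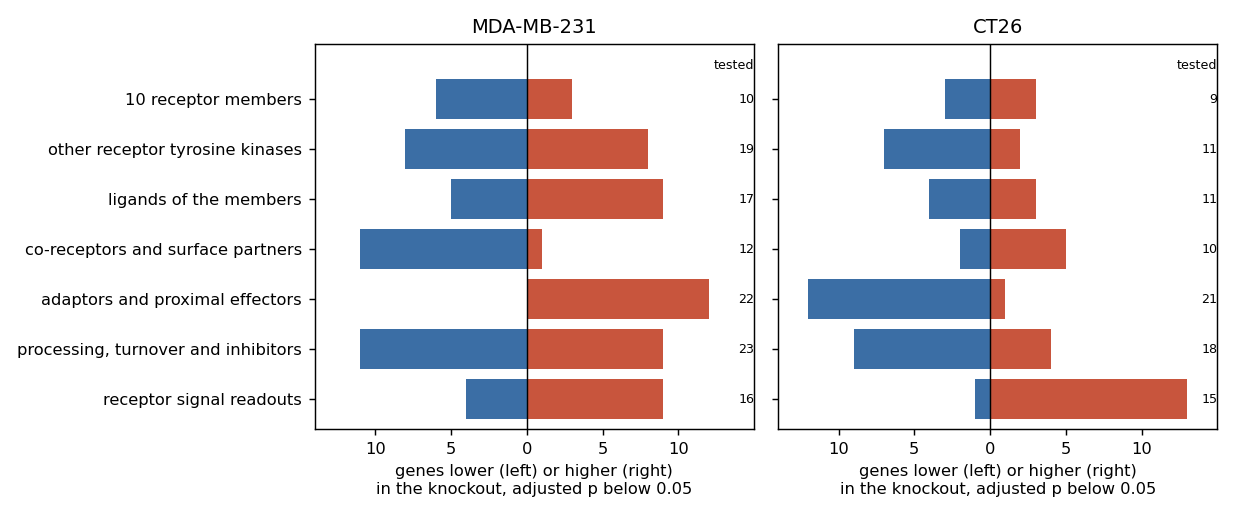
Number of genes in each list called lower (blue, to the left of 0) or higher (red, to the right) in the knockout at an adjusted p below 0.05, in MDA-MB-231 (left) and CT26 (right), with the number tested at the right edge. The co-receptor bar lies mostly to the left in MDA-MB-231 with 11 lower and 1 higher, and the signal readout bar to the right in CT26 with 13 higher and 1 lower.

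By Pearson's r over the 8 libraries of a line, among at least 8815 genes with a mean of at least 5 FPKM, the gene most like IGF1R in MDA-MB-231 was CD22 (r = 0.995), the gene most like ROR1 was ECHDC2 (r = 0.999) and the gene most like EPHB2 was ZBTB4 (r = 0.999). For DDR1 it was the interferon-induced gene IFI6 (r = 0.992) and for AXL the phosphatase gene DUSP4 (r = 0.997). In CT26 the nearest gene to Epha2 was Ctgf (r = 0.996), to Fgfr1 Eif2b2 (r = 0.997) and to Met Pprc1 (r = 0.995). The best match of so many genes over 8 libraries in 2 groups tends to be high, so these are descriptions of the profiles. The authors' deposited table gives q = 1.50e-04 for EPHB2, IGF1R, EPHA2, AXL, ROR1 and DDR1, 2.89e-04 for INSR, 0.00516 for MET, 0.216 for FGFR1 and 0.888 for PDGFRB, and in CT26 that table gives 2.14e-04 for Fgfr1, Epha2, Ddr1 and Pdgfrb, 0.00647 for Met and 0.454 for Axl.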

How the data were processed

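Per the submitters' processing notes, reads were converted with bcl2fastq 2.18, aligned with STAR 2.5.4a and quantified with Cufflinks 2.2.1 and Cuffdiff on hg38 and mm10. The sources used here do not give the annotation release, strand use or library scaling. The authors deposited 1 table per line with FPKM per gene and library, and with their own p-value and q-value. Genes that the status column marked as not estimated (13 in MDA-MB-231, and 210 plus 2 failed ones in CT26) were left out, and none was a receptor.

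Of each line, genes reaching 1 FPKM in 4 or more of the 8 libraries were tested as log2(FPKM + 1) in limma 3.58.1 (R 4.3.3) with a mean-variance trend, knockout against wild type, two-sided, Benjamini-Hochberg over all genes tested, threshold 0.05. The difference between lines was tested in 1 limma fit on paired symbols. Relative depth was the most frequent ratio of FPKM values below 0.5 between libraries, computed with Python 3.11.15. FPKM gives no exact counts, so no counting interval is given. Replicate numbers were not used as pairs in the main fits, because same-numbered libraries correlated below the 0.1 required. In CT26 each number still correlated best with its own, so pairing there is not excluded. Start coordinates were raised by 1 to count from 1. The fits were tested on simulated data.

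The members and lists were chosen with earlier results of these data known. Named list genes were among the 4 with the smallest adjusted p of their list in a line. Relatives and partners of the receptors outside that rule were named after their values were seen. Alternatives were 2 pseudocounts, 2 filters, 2 scalings, no trend, a replicate block and leaving out each library.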

Additional observations from a re-analysis of the deposited data

Results flagged for a closer look

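Among 184 groups of 4 libraries checked, for the receptors and the named genes, 4 held 1 library far from the other 3, where chance gives about 1 in 20. Ror1 in the CT26 knockout was at 0.00855 FPKM in replicate 2 and listed at 0 in the others, so the gap took the whole range (1 of 1). GAB2 in wild type MDA-MB-231 was 2.26 FPKM in replicate 4 and 1.48 to 1.59 FPKM in the others, a gap of 0.843 of the range. Ddr2 in wild type CT26 was 45.3 FPKM in replicate 4 and 49.5 to 50.4 FPKM in the others, a gap of 0.836. GRB10 in wild type MDA-MB-231 was 18.3 FPKM in replicate 1 and 22.9 to 23.8 FPKM in the others, a gap of 0.855.

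The knockout response of 6 receptors differed between the lines in the test of the difference itself, where 72.2% of all paired genes did. The differences, MDA-MB-231 minus CT26 on the log2 scale, were 0.36 for AXL, -1.68 for FGFR1, -1.51 for EPHB2, 1.73 for IGF1R, -0.96 for INSR and -1.63 for DDR1. The lines differ in species, tissue, culture medium and table, and each has its own knockout, and these cannot be told apart. The differences of other genes in the same fit are not given here.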

How the results depend on the processing

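The numbers of called receptors were within 1.5 times the reported ones under all alternatives run, at 8 to 9 of 10 in MDA-MB-231, 4 to 6 of 9 in CT26 and 5 to 7 for the difference between lines. Leaving out 1 library gave 8 to 9, 5 to 6 and 6 to 7, and over all genes 9338 to 9602 calls in MDA-MB-231 and 5772 to 6007 in CT26. With the replicate number as a block the receptor counts were 8, 5 and 6 and the counts over all genes 9648 and 6031. FGFR1 in MDA-MB-231 (adjusted p = 0.0918) and Axl in CT26 (0.0597) were then not called. Same-numbered libraries correlated at -0.0365 to 0.00442 in MDA-MB-231 and 0.0273 to 0.0779 in CT26, below the 0.1 required. In CT26 every replicate number correlated best with its own and in MDA-MB-231 none did.

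Some values near 0 turned sign when 1 library was left out, with log2 changes of -0.27 to 0.052 for PDGFRB and -0.17 to 0.085 for TYRO3 in MDA-MB-231, and -0.0059 to 0.14 for Igf1r and -0.0026 to 0.043 for Plxnb2 in CT26. The difference between lines was -0.028 to 0.30 for PDGFRB when 1 library was left out and -0.051 after upper-quartile scaling. For MET it was -0.15 after upper-quartile scaling and -0.12 after quantile normalization. Under the stricter filter fewer list genes were tested, which left 8 called among other receptors and 7 among ligands in MDA-MB-231, and with no filter 11 ligands were called in CT26. The calls among other receptors in MDA-MB-231 ranged from 8 to 24 over all alternatives. The list medians moved too. In MDA-MB-231 the median log2 change was 0.098 to 0.73 for ligands. It changed sign for processing, turnover and inhibition (-0.35 to 0.032) and for other receptors (-0.21 to 0.085). In CT26 that of other receptors was -0.31 to 0.0067. Relative depth was lower in the knockout than in the wild type libraries of MDA-MB-231, and its part in the results was not tested.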
